A study of Mus musculus with 24 samples.

Results

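Transcripts of 10 genes of the ATF4 amino acid response were followed across a pancreatic cancer cell experiment: Atf4, Atf5, Ddit3, Cebpb, Trib3, Asns, Chac1, Sesn2, Ddit4 and Gdf15. They were taken by symbol from a table of 54532 genes. All 10 were among the 12061 genes that reached 1 FPKM (fragments for each kilobase of a gene, scaled by depth) in at least 3 libraries, and 9 of them were at or above 1 FPKM in all 24 libraries. The exception was Gdf15, which passed through 3 libraries only. The symbol Ddit3 stood on 2 rows, of which a 105-base model inside the Ddit3 locus held 0 reads in every library and was not used. In the GRCm38 coordinates of the deposited table, with the strand in parentheses, the genes were Atf4 at chr15:80255184-80257541 (plus), Atf5 at chr7:44812256-44816658 (minus), Ddit3 at chr10:127290774-127296288 (plus), Cebpb at chr2:167688915-167690418 (plus), Trib3 at chr2:152337422-152344032 (minus), Asns at chr6:7675169-7693254 (minus), Chac1 at chr2:119351229-119354381 (plus), Sesn2 at chr4:132492032-132510501 (minus), Ddit4 at chr10:59949669-59951834 (minus) and Gdf15 at chr8:70629393-70632456 (minus).

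All libraries came from HY19636, a mouse pancreatic ductal adenocarcinoma cell line. Phgdh, whose product starts the pathway that makes serine from a glycolytic intermediate, was intact (WT) or knocked out (KO). The cells grew in medium with serine and glycine (SG medium) or in medium lacking both (SG-free medium), and either alone (monoculture) or with hepatocytes (coculture). These 3 factors were fully crossed, giving 8 groups of 3 libraries. The part of Phgdh that was edited, whether the KO cells were 1 clone, the source of the hepatocytes and the way in which cancer cells were separated from them were not given in the sources used here. Replicates carry numbers only, so p-values rest on the spread of libraries within groups, pooled over all 8 groups, and that spread may be technical.

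ATF4 is a bZIP transcription factor at the centre of the integrated stress response. When an amino acid is short, uncharged tRNA activates the kinase GCN2, which phosphorylates the initiation factor eIF2α; translation falls in general while the Atf4 message is translated more. ATF4 then pairs with C/EBP and other bZIP factors and raises genes for amino acid synthesis, transport and tRNA charging, along with regulators that restrain growth or promote death. Because much of the control of ATF4 lies in translation, the level of the Atf4 transcript does not report the level of the protein.

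The DNA element through which ATF4 and a C/EBP partner act on Asns and other targets is a composite site, searched for here by its core letters TGATGNAA on both strands (TTNCATCA on the other strand). In the RefSeq promoter windows of GRCm38.p6 (250 bases before to 50 bases after each start) all 10 genes had an entry, and 3 of them held the core: Asns, Trib3 and Chac1. Among all 32851 windows, 3.97% held it. The 10 genes had 12 windows, so the counts by gene and the shares by window, here and below, have unlike units. The stretches around these cores are printed because the 3 genes did not move together in the data below, with the core in capitals and each sequence read 5′ to 3′ along the strand of its gene.

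Asns, chr6:7693214-7693243, minus strand: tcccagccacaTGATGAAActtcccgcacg
Trib3, chr2:152344028-152344057, minus strand: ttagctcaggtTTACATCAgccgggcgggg
Chac1, chr2:119350992-119351116, plus strand: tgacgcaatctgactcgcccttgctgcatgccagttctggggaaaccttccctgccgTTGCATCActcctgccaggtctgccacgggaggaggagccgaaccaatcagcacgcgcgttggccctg

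In Asns the core lay 23 to 16 bases before the RefSeq start and inside the deposited gene model, and in Chac1 it lay 193 to 186 bases before the start. The core of Trib3 lay 14 to 21 bases after the RefSeq start, but upstream of the deposited gene model. The hypoxia response core ACGTG, searched for on both strands, was in the windows of Asns, Ddit3, Ddit4 and Gdf15 and in 19.6% of all windows. The cAMP response palindrome TGACGTCA was in none of the 10 genes' windows and in 1.79% of all windows. A match describes letters only and shows no binding.

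The libraries held 15740081 to 23479425 reads assigned to genes. Phgdh was lower in the KO than in the WT libraries of the same medium and culture, without overlap, but it was not absent: 372 to 885 FPKM in the 12 KO libraries against 789 to 1405 FPKM in the 12 WT libraries. The difference passed the test in 3 of the 4 settings; in SG-free monoculture it did not (-0.21 on the log2 scale, adjusted p = 0.115 by limma). Of 7 ductal markers, Krt18, Krt8, Cdh1 and Krt19 stood at 64.0 FPKM or more in every library and Krt7 at 34.7 FPKM or more, while Sox9 ranged from 2.05 to 58.0 FPKM and Epcam stayed at or below 1.3 FPKM. Of 13 hepatocyte markers, 6 were at 0 in all 24 libraries (Fgb, Fga, Ahsg, Cyp3a11, Cyp2e1 and Serpina1c), and Alb did not exceed 0.131 FPKM, in coculture or monoculture. Hnf4a, a liver and epithelial transcription factor, was the only one tested, at 13.4 to 19.1 FPKM in monoculture and 19.4 to 40.3 FPKM in coculture. The summed level of the 13 was thus 13.4 to 19.4 FPKM in monoculture and 19.6 to 40.7 FPKM in coculture, nearly all from Hnf4a. The part of Hnf4a in the coculture results was not tested.

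Some KO libraries stood apart from their replicates in these genes. The first replicate of KO monoculture in SG medium, the second of KO coculture in SG-free medium and the first of KO monoculture in SG-free medium were each the lowest of their group in 8 of the 10 genes and the highest in Asns. The second replicate of WT coculture in SG medium was likewise the lowest of its group in 8 of the 10 genes, Asns among them. In KO coculture with SG-free medium, the first replicate lay about as far above its group as the second lay below in most genes. Against the mean of the other 2 libraries, on the log2(FPKM + 1) scale, they stood at 0.67 and -0.72 for Atf4. The values were 1.04 and -1.13 for Cebpb. Asns had the reverse order, and Ddit3 did not share this split. In KO monoculture with SG medium, Atf4 stood at 155, 305 and 299.9 FPKM, Cebpb at 51.2, 171 and 142 FPKM and Ddit4 at 10.9, 34.3 and 29.1 FPKM, while Asns stood at 151, 116 and 115 FPKM. The first library was thus low in every gene named here except Asns, where it was high. Ddit3 did not share the split (137, 140.5 and 132 FPKM). Over all tested genes this library correlated with its own group at 0.969, and the first replicate of KO coculture in SG-free medium correlated better with KO coculture in SG medium (0.984) than with its own group (0.980). All groups share 1 estimate of the spread, so these libraries also enter comparisons of other groups.

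**Figure D1:**
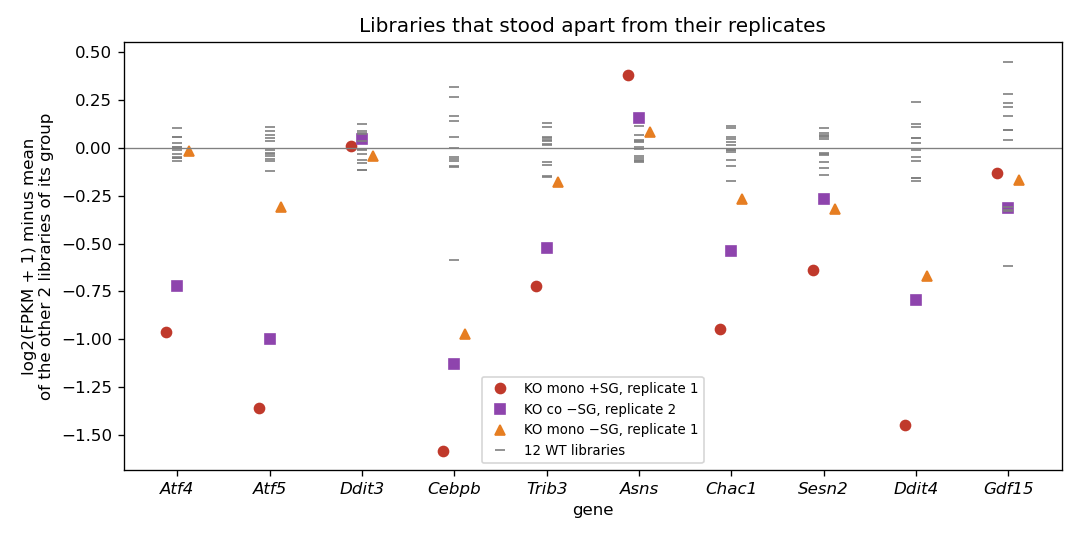
For each of the 10 genes, the log2(FPKM + 1) value of a library minus the mean of the other 2 libraries of its group. Coloured points are 3 KO libraries, each the lowest of its group in 8 of the 10 genes. Grey dashes are the 12 WT libraries. SG, serine and glycine; mono, monoculture; co, coculture. The coloured points lie below 0 in most genes, which follows from that choice, and above 0 in Asns. The first replicate of KO coculture in SG-free medium, which lay above its group in most genes, is not shown.

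Withdrawal of serine and glycine from KO cells in monoculture changed more genes than withdrawal in any other setting. Of the 10 genes, 6 rose and 2 fell; 70.8% of all tested genes (36.2% higher and 34.5% lower) changed in this comparison, so the share that changed was near that of the transcriptome. Ductal markers moved with this change: 5 of 6 tested rose and 0 fell (median 1.26), and their sum went from 1620 to 1858 FPKM to 4397 to 4598 FPKM; their part in the result was not tested. The median log2 change of the 10 was 0.51, beside 0.0042 over all tested genes. Every fold and log2 change here is on the log2(FPKM + 1) scale, and adjusted p-values are Benjamini-Hochberg values from limma over all 12061 genes.

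Among the transcription factors, Atf5, a relative of ATF4 that is also controlled at translation, moved most. Its libraries stood at 50.3, 133 and 129 FPKM with SG medium and at 325, 403 and 404 FPKM without, and the groups did not overlap. The rise was 1.97 ± 0.28 (SE; adjusted p = 3.53e-06), or 3.91-fold. Without the first SG-medium replicate it was 1.51 (adjusted p = 3.49e-06). Ddit3, which encodes the pro-death factor CHOP, went from 137, 140.5 and 132 FPKM to 221, 229 and 226 FPKM, a tight and separate set of libraries on each side. Its rise was 0.72 ± 0.059 (SE; adjusted p = 1.53e-09). Atf4 itself stood at 350.4, 359 and 349.5 FPKM in SG-free medium, above all 3 SG-medium libraries. Its rise of 0.54 ± 0.20 (SE; adjusted p = 0.0194) rested on the low first SG-medium library, without which it was 0.22 (adjusted p = 0.187). Cebpb, a C/EBP partner of ATF4, stood at 95.1, 199 and 176 FPKM in SG-free medium and overlapped the SG-medium group, and its value of 0.47 ± 0.36 (SE; adjusted p = 0.252) did not pass the test.

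Trib3, a pseudokinase that ATF4 induces and that restrains ATF4 and CHOP in turn, rose as well. Its libraries stood at 70.0, 118 and 114 FPKM in SG medium and 222, 252 and 250.4 FPKM in SG-free medium, without overlap. The rise was 1.29 ± 0.15 (SE; adjusted p = 3.65e-07), and 1.05 (adjusted p = 2.91e-07) without the first SG-medium replicate. In bulk RNA of a culture, more cells expressing a gene and more of its RNA per cell cannot be told apart.

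The enzymes went in opposite directions. Asns, asparagine synthetase, stood at 173, 164 and 163 FPKM in SG-free medium, each above its 3 SG-medium libraries, and rose by 0.40 ± 0.077 (SE; adjusted p = 0.000139), or 1.32-fold. Chac1, which degrades glutathione and is a usual ATF4 and CHOP target, stood at 52.0, 106 and 96.4 FPKM with SG medium and at 51.0, 63.0 and 60.3 FPKM without. It fell, with a change of -0.48 ± 0.19 (SE; adjusted p = 0.0277), with the first SG-medium library inside the range of the SG-free ones. Leaving out that library gave a larger change of -0.80 (adjusted p = 2.54e-05), whereas 3 other omissions ended the call. The value was -0.29 (adjusted p = 0.185) without the second SG-medium library, -0.36 (adjusted p = 0.131) without the third, and -0.39 (adjusted p = 0.107) without the first SG-free library.

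The mTORC1 regulators split as well. Sesn2, a leucine sensor that restrains mTORC1 through GATOR2, stood at 15.2, 24.1 and 24.3 FPKM with SG medium and at 29.4, 38.0 and 35.6 FPKM without. It rose by 0.69 ± 0.13 (SE; adjusted p = 7.7e-05). Ddit4 (REDD1), which restrains mTORC1 through the TSC complex and is also a hypoxia gene, went from 10.9, 34.3 and 29.1 FPKM to 5.93, 10.1 and 10.003 FPKM. This was a change of -1.30 ± 0.29 (SE; adjusted p = 0.000586), and -1.79 (adjusted p = 6.1e-07) without the first SG-medium replicate. Gdf15, a secreted stress hormone, stayed at or below 0.135 FPKM in both KO monoculture groups, and no difference was detectable at this depth.

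**Figure D2:**
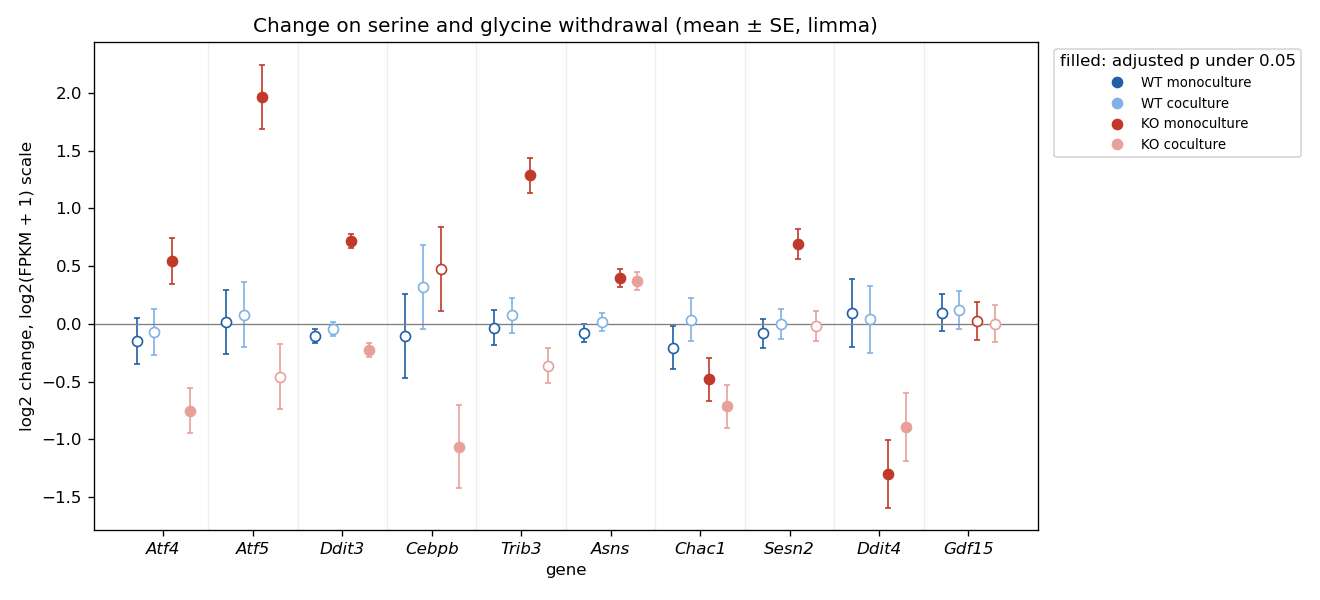
Change of each gene on withdrawal of serine and glycine, as the limma log2 change with its SE on the log2(FPKM + 1) scale, in the 4 combinations of genotype and culture. Filled points passed an adjusted p of 0.05. WT points lie near 0 and none is filled, while KO monoculture points spread from -1.30 for Ddit4 to 1.97 for Atf5.

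In WT cells no gene of the 10 passed the test on withdrawal. With limma, 0 of the 10 genes passed in monoculture, beside 1.63% of all tested genes (1.37% higher and 0.257% lower), and 0 passed in coculture, beside 0.738% of all tested genes (0.439% higher and 0.298% lower); 0 and 0 of the 10 had an unadjusted p under 0.05, and limma voom on recovered reads also called 0 and 0. In WT monoculture Atf5 stood at 147, 137 and 135 FPKM with SG medium and 133, 144 and 146 FPKM without, and Trib3 at 107, 100.5 and 108 FPKM and 103, 109 and 95.5 FPKM. The libraries of both genes overlapped between media. Without overlap, Atf4, Cebpb, Asns and Chac1 were lower in SG-free monoculture, and Atf5 and Cebpb were higher in SG-free coculture. How many of all tested genes did not overlap was not counted. These tests use a spread shared with the scattered KO groups. No alternative added a call, the lowest adjusted p by limma being 0.058 for Chac1 in monoculture. The largest WT values were -0.21 ± 0.19 for Chac1 in monoculture and 0.32 ± 0.36 for Cebpb in coculture, both log2 changes with their SE.

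The difference between the KO and the WT response in monoculture was tested as an interaction. It passed for 6 genes in the direction of a larger KO rise and for 1 in that of a larger KO fall, beside 61.2% of all tested genes (31.4% higher and 29.8% lower). Atf5 had the largest difference, 1.95 ± 0.40 (SE; adjusted p = 0.000284), followed by Trib3 at 1.32 ± 0.22 (SE; adjusted p = 3.16e-05). Ddit4 differed by -1.40 ± 0.42 (SE; adjusted p = 0.00687), and Ddit3, Sesn2 and Asns by 0.82, 0.78 and 0.48. The Atf4 difference of 0.69 ± 0.28 (SE; adjusted p = 0.0381) fell to 0.37 (adjusted p = 0.11) without the first KO replicate in SG medium. It also lost the call when any of 8 other libraries of these groups was left out (adjusted p = 0.0554 to 0.0653). Chac1, Cebpb and Gdf15 did not pass. Of these, Chac1 passed in 3 of 20 alternatives. Its difference ran from -0.59 to -0.078 over the 20, with a lowest adjusted p of 0.000429 by limma.

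Withdrawal was next compared in KO cells with hepatocytes present. Of the 10 genes, 1 rose and 5 fell, beside 29.9% of all tested genes (15.5% higher and 14.4% lower), with a median log2 change of -0.41 for the 10 and -0.00066 for all genes. Of the ductal markers 4 of 6 rose and 1 fell. Asns was the gene that rose, from 126, 128 and 124 FPKM to 151, 175 and 164 FPKM, by 0.37 ± 0.077 (SE; adjusted p = 0.00159). The groups did not overlap, and the size was close to that in monoculture, 0.40.

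In the genes that fell, the SG-free libraries were scattered. Atf4 went from 328, 324 and 324 FPKM to 263, 138 and 197 FPKM, a change of -0.75 ± 0.20 (SE; adjusted p = 0.00807). Cebpb went from 154, 149 and 144 FPKM to 115, 41.5 and 73.7 FPKM, a change of -1.06 ± 0.36 (SE; adjusted p = 0.0335). In both genes the SG-medium libraries were close together and the SG-free ones ran from the first replicate down to the second. Chac1 (78.3, 47.0 and 60.6 FPKM in SG-free against 102, 99.3 and 99.0 FPKM in SG medium) fell, with a change of -0.71 ± 0.19 (SE; adjusted p = 0.00784). Ddit4 (41.9, 19.2 and 27.8 FPKM against 51.7, 55.8 and 52.5 FPKM) fell, with a change of -0.89 ± 0.29 (SE; adjusted p = 0.0285). Ddit3 fell, with a change of -0.23 ± 0.059 (SE; adjusted p = 0.00762), a small and tighter change.

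Of these 6 calls, 2 were left without the second SG-free replicate (Asns and Ddit3) and 3 without the third; the 2 groups of this comparison fitted alone gave 2 (Asns and Chac1). Without the first SG-free replicate, 8 passed. Without the second, Cebpb stood at -0.69 (adjusted p = 0.212), Ddit4 at -0.63 (adjusted p = 0.171), Chac1 at -0.53 (adjusted p = 0.0612) and Atf4 at -0.51 (adjusted p = 0.0662). Cebpb and Ddit4 also lost the call when any single replicate in SG medium was left out. Trib3, which had risen in monoculture, stood at 179, 111 and 144 FPKM against 184, 183 and 181 FPKM (-0.36 ± 0.15 SE, adjusted p = 0.0823), and Sesn2 at 35.4, 27.4 and 31.1 FPKM against 31.5, 31.3 and 31.9 FPKM (-0.020 ± 0.13 SE, adjusted p = 0.923). Neither passed the test, nor did Atf5 (-0.46 ± 0.28 SE, adjusted p = 0.225).

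Whether the KO response to withdrawal differed between coculture and monoculture was again tested directly. It was lower in coculture for 6 of the 10 genes and higher for 0, beside 57.7% of all tested genes (27.9% higher and 29.8% lower). The differences were -2.42 ± 0.40 (SE; adjusted p = 3.31e-05) for Atf5, -1.65 ± 0.22 (SE; adjusted p = 2.61e-06) for Trib3, -0.94 ± 0.083 (SE; adjusted p = 1.2e-08) for Ddit3 and -1.30 ± 0.28 (SE; adjusted p = 0.000566) for Atf4. Sesn2 differed by -0.71 ± 0.18 (SE; adjusted p = 0.00232). The Cebpb difference of -1.54 ± 0.51 (SE; adjusted p = 0.0151) was lost without the second SG-free coculture replicate, at -1.16 (adjusted p = 0.0516), and was -1.01 (adjusted p = 0.0422) without the first monoculture replicate in SG medium. For Asns the difference was -0.028 ± 0.11 (SE, adjusted p = 0.847), which did not pass. Over 20 alternatives it ran from -0.21 to 0.12 and passed in 1 (adjusted p = 0.0114 by limma). Without the first KO monoculture replicate in SG medium Ddit4 also differed, in the direction of a smaller fall in coculture, at 0.89 (adjusted p = 0.0134).

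In coculture the KO response was further compared with the WT response. Asns was the 1 gene of 10 that passed, at 0.35 ± 0.11 (SE; adjusted p = 0.0375), beside 14.4% of all tested genes (8.06% higher and 6.38% lower). This single call was unstable: 7 of the 10 genes passed without the first KO replicate in SG-free medium and 0 without any 1 of the other libraries of these groups, and the unadjusted p was under 0.05 for 6 genes. Without the second KO replicate in SG-free medium, for example, Asns stood at 0.30 (adjusted p = 0.107).

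Coculture was next compared with monoculture at matched genotype and medium. Of 6 ductal markers, 5 rose and 0 fell in WT cells in SG medium, 5 and 1 in WT cells in SG-free medium, 4 and 2 in KO cells in SG medium, and 1 and 5 in KO cells in SG-free medium; their part in the results was not tested. Ddit3 was lower in coculture in all 4 settings. Its WT libraries went from 136, 125 and 134 FPKM alone to 96.4, 108 and 101 FPKM with hepatocytes in SG medium, and from 118, 127 and 122 FPKM to 103, 97.2 and 95.7 FPKM in SG-free medium. The groups were separate each time. The changes were -0.37 ± 0.059 (SE; adjusted p = 6.61e-05) and -0.31 ± 0.059 (SE; adjusted p = 0.000441) in WT cells and -0.42 ± 0.059 (SE; adjusted p = 1.17e-05) in KO cells in SG medium. In KO cells in SG-free medium Ddit3 dropped from 221, 229 and 226 FPKM to 94.3, 88.9 and 78.7 FPKM, a change of -1.36 ± 0.059 (SE; adjusted p = 9.48e-14).

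In WT cells Ddit3 was the only 1 of the 10 genes that passed, beside 31.2% of all tested genes (16.3% higher and 14.9% lower) in SG medium and 28.1% of all tested genes (14.9% higher and 13.1% lower) in SG-free medium. Ddit4 was higher in all WT coculture libraries (48.7, 43.0 and 47.4 FPKM) than in all WT monocultures (33.6, 32.0 and 29.3 FPKM) in SG medium, but with the shared spread its change of 0.54 ± 0.29 (SE; adjusted p = 0.186) did not pass. Fitted on the compared groups alone, 5 genes passed in SG medium and 4 in SG-free medium, Ddit4, Trib3 and Atf5 among them in both; the Ddit4 adjusted p by limma was then 0.00192 and 0.00322. With the first replicate of KO monoculture in SG medium and the second of KO coculture in SG-free medium left out, which enter these comparisons only through the spread, 4 and 4 genes passed.

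In KO cells in SG medium, coculture raised 4 of the 10 genes and lowered 1, beside 40.0% of all tested genes (20.1% higher and 19.9% lower). Trib3 rose from 70.0, 118 and 114 FPKM to 184, 183 and 181 FPKM, without overlap (0.89 ± 0.15 SE, adjusted p = 0.000121). Sesn2 stood at 31.5, 31.3 and 31.9 FPKM in coculture and rose by 0.58 ± 0.13 (SE; adjusted p = 0.00114), which became 0.37 (adjusted p = 0.00377) without the first monoculture replicate. Ddit4 stood at 51.7, 55.8 and 52.5 FPKM and rose by 1.22 ± 0.29 (SE; adjusted p = 0.0025), which became 0.74 (adjusted p = 0.0123) without the first monoculture replicate. The Atf5 rise of 0.84 ± 0.28 (SE; adjusted p = 0.0221) was lost without that replicate (0.39, adjusted p = 0.171) and without the first or the second coculture replicate. Asns changed by -0.0054 ± 0.077 (SE; adjusted p = 0.967). Fitted on the compared groups alone, Atf5, Sesn2 and Ddit4 lost the call, with limma adjusted p = 0.0644 for Sesn2 and 0.0768 for Ddit4.

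The effect of coculture in SG medium differed between KO and WT cells for 1 gene, Sesn2, at 0.59 ± 0.18 (SE; adjusted p = 0.0436), beside 10.4% of all tested genes (4.98% higher and 5.39% lower). The unadjusted p was under 0.05 for 3 genes. Without any 1 of 10 of the 12 libraries of these groups the Sesn2 call was lost; without the first KO monoculture replicate it was 0.38 (adjusted p = 0.0652).

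In KO cells in SG-free medium, the most genes of the 4 coculture comparisons differed. Here 5 of the 10 genes fell and 1 rose, beside 71.3% of all tested genes (35.0% higher and 36.3% lower); this comparison shares the SG-free monocultures with the withdrawal comparison above. Atf5 fell from 325, 403 and 404 FPKM to 195, 77.9 and 127 FPKM, a change of -1.59 ± 0.28 (SE; adjusted p = 4.67e-05). Atf4 changed by -0.87 ± 0.20 (SE; adjusted p = 0.000599) and Trib3 by -0.76 ± 0.15 (SE; adjusted p = 0.000206), both falls without overlap between the groups. The Cebpb change of -1.07 ± 0.36 (SE; adjusted p = 0.013), with overlapping groups, was lost without the second SG-free coculture replicate (-0.69, adjusted p = 0.0998) and without the second monoculture replicate (-0.86, adjusted p = 0.0653). Ddit4 moved the other way, from 5.93, 10.1 and 10.003 FPKM to 41.9, 19.2 and 27.8 FPKM, a rise of 1.63 ± 0.29 (SE; adjusted p = 5.97e-05).

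Asns, Sesn2 and Chac1 did not pass in this comparison. Asns stood at 151, 175 and 164 FPKM with hepatocytes and 173, 164 and 163 FPKM without (-0.033 ± 0.077 SE, adjusted p = 0.716), and the libraries of both groups lay above all WT libraries. Sesn2 changed by -0.13 ± 0.13 and Chac1 by 0.067 ± 0.19. Each passed in 1 of 14 alternatives, with adjusted p by limma of 0.00998 for Sesn2 and 0.0225 for Chac1.

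**Figure D3:**
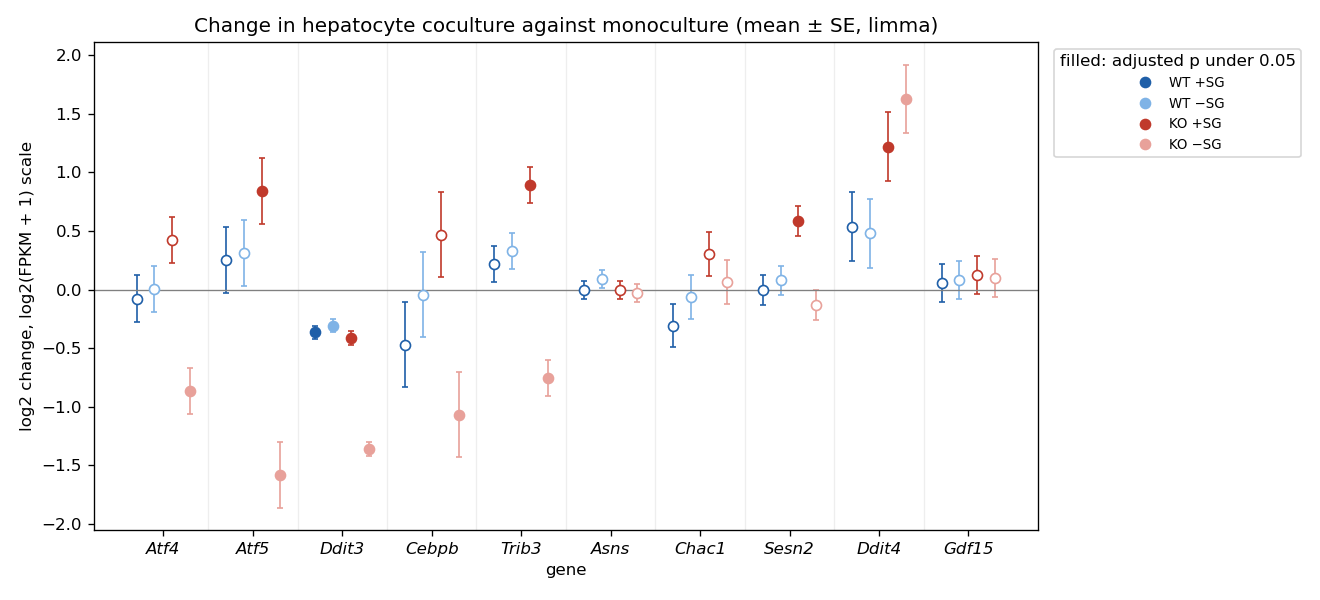
Change of each gene in coculture with hepatocytes against monoculture, as the limma log2 change with its SE on the log2(FPKM + 1) scale, at each genotype and medium (+SG, with serine and glycine; −SG, without). Filled points passed an adjusted p of 0.05. Ddit3 is filled and below 0 in all 4 settings, and in KO cells in SG-free medium Ddit4 rises while Atf4, Atf5, Ddit3, Cebpb and Trib3 fall.

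The cocultured KO cells in SG-free medium were also set against KO monocultures in SG medium. In this comparison 3 genes were higher and 1 was lower, beside 44.5% of all tested genes (22.9% higher and 21.6% lower). Ddit3 was lower, with a difference of -0.64 ± 0.059 (SE; adjusted p = 2.72e-08). Asns was higher by 0.36 ± 0.077 (SE; adjusted p = 0.000724), Sesn2 by 0.56 ± 0.13 (SE; adjusted p = 0.00127) and Trib3 by 0.53 ± 0.15 (SE; adjusted p = 0.00858). Without the first SG-medium replicate, 6 genes passed: Sesn2 became 0.35 (adjusted p = 0.0039), Trib3 was lost (0.29, adjusted p = 0.0544) and Atf4, Chac1 and Cebpb were lower, at -0.65 (adjusted p = 0.00121), -0.73 (adjusted p = 0.000146) and -1.12 (adjusted p = 0.00502). The Trib3 call was also lost without the first SG-free coculture replicate (0.36, adjusted p = 0.0621). The groups overlapped in Asns and Trib3 and were separate in Sesn2. Fitted on the compared groups alone, Ddit3 was the only gene that passed, with limma adjusted p = 0.102 for Asns and 0.0993 for Sesn2.

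Gdf15 was a weak transcript. Its 12 WT libraries held 9 to 37 reads each (0.263 to 1.12 FPKM), 327 reads in all, and its 12 KO libraries 0 to 10 reads (up to 0.311 FPKM), 47 reads in all, with 3 at 0. It passed the filter only through 3 WT libraries, so a difference between genotypes was favoured by the filter and no test of it is given. The ratios of mean FPKM, KO over WT, were 0.0877, 0.102, 0.207 and 0.179 in monoculture with and without serine and glycine and in coculture with and without them.

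Genotypes were compared over the other 9 genes. In monoculture with SG medium, limma called 0 higher and 0 lower in KO cells, beside 42.7% of all tested genes (21.5% higher and 21.1% lower); 1 had an unadjusted p under 0.05 and limma voom called 1. Chac1 stood at -0.42 ± 0.19 (SE; adjusted p = 0.0753), which passed without the second KO replicate (-0.62, adjusted p = 0.0131) and without the third (-0.55, adjusted p = 0.0399). Without the second KO replicate Atf5 and Ddit4 passed as well. In monoculture without serine and glycine, 5 of the 9 were higher in KO and 2 lower, beside 73.6% of all tested genes (37.4% higher and 36.3% lower). Atf5 (1.41), Trib3 (1.23), Ddit3 (0.88), Sesn2 (0.65) and Asns (0.54) were higher, and Ddit4 (-1.88) and Chac1 (-0.69) were lower. All are log2 changes with adjusted p of 0.00243 or less in limma. Cebpb (0.019 ± 0.36 SE, adjusted p = 0.966) and Atf4 (0.36 ± 0.20 SE, adjusted p = 0.107) did not pass. Every KO library was above every WT library in Atf4, which passed in 4 of 14 alternatives (lowest adjusted p = 8.9e-05 by limma).

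In coculture with SG medium, Trib3 and Sesn2 were higher in KO cells and 0 of the 9 genes lower, beside 43.9% of all tested genes (21.8% higher and 22.0% lower). Trib3 stood at 184, 183 and 181 FPKM in KO and 123, 118 and 125 FPKM in WT cells (0.57 ± 0.15 SE, adjusted p = 0.00493). Sesn2 stood at 31.5, 31.3 and 31.9 FPKM and 23.4, 21.2 and 23.5 FPKM (0.46 ± 0.13 SE, adjusted p = 0.00628). Neither gene overlapped. In coculture without serine and glycine, Asns (0.42 ± 0.077 SE, adjusted p = 0.000145) and Sesn2 (0.44 ± 0.13 SE, adjusted p = 0.0069) were higher in KO cells. There 5 genes were lower, beside 53.6% of all tested genes (26.3% higher and 27.4% lower): Atf4, Ddit3, Cebpb, Chac1 and Ddit4. Leaving out 1 library at a time ended the call of Atf4 and Ddit4 in 5 cases each, of Cebpb in 3, of Ddit3 in 2 and of Chac1 in 1. Without the second KO replicate Atf4 stood at -0.27 (adjusted p = 0.248), Ddit4 at -0.47 (adjusted p = 0.226), Chac1 at -0.38 (adjusted p = 0.111) and Cebpb at -0.63 (adjusted p = 0.167).

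Across all 8 groups, FPKM levels are per gene length and can be compared between genes. Atf4 was the most abundant of the 10 in every group except KO monoculture without serine and glycine, where Atf5 was higher, with group means from 199 ± 62.9 FPKM to 353 ± 5.30 FPKM (SD, n = 3), and Gdf15 the least, below 1 FPKM in each group mean. Atf4, Sesn2, Atf5, Ddit3, Trib3 and Asns had their highest mean in KO monoculture without serine and glycine: 353 ± 5.30 FPKM, 34.3 ± 4.47 FPKM, 377 ± 45.2 FPKM, 225 ± 4.28 FPKM, 241 ± 17.0 FPKM and 167 ± 5.72 FPKM (SD, n = 3). For Atf4, Atf5, Ddit3 and Trib3 the libraries were separate from those of the next group, whereas Sesn2 overlapped with KO coculture in SG medium and Asns with KO coculture in SG-free medium at 163 ± 12.4 FPKM (SD, n = 3). Ddit4 was highest in KO coculture with SG medium (53.3 ± 2.15 FPKM) and lowest in KO monoculture without (8.68 ± 2.38 FPKM), both SD with n = 3. Chac1 was highest in WT monoculture with SG medium (109 ± 5.20 FPKM, SD, n = 3) and lowest in KO monoculture without serine and glycine.

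**Figure D4:**
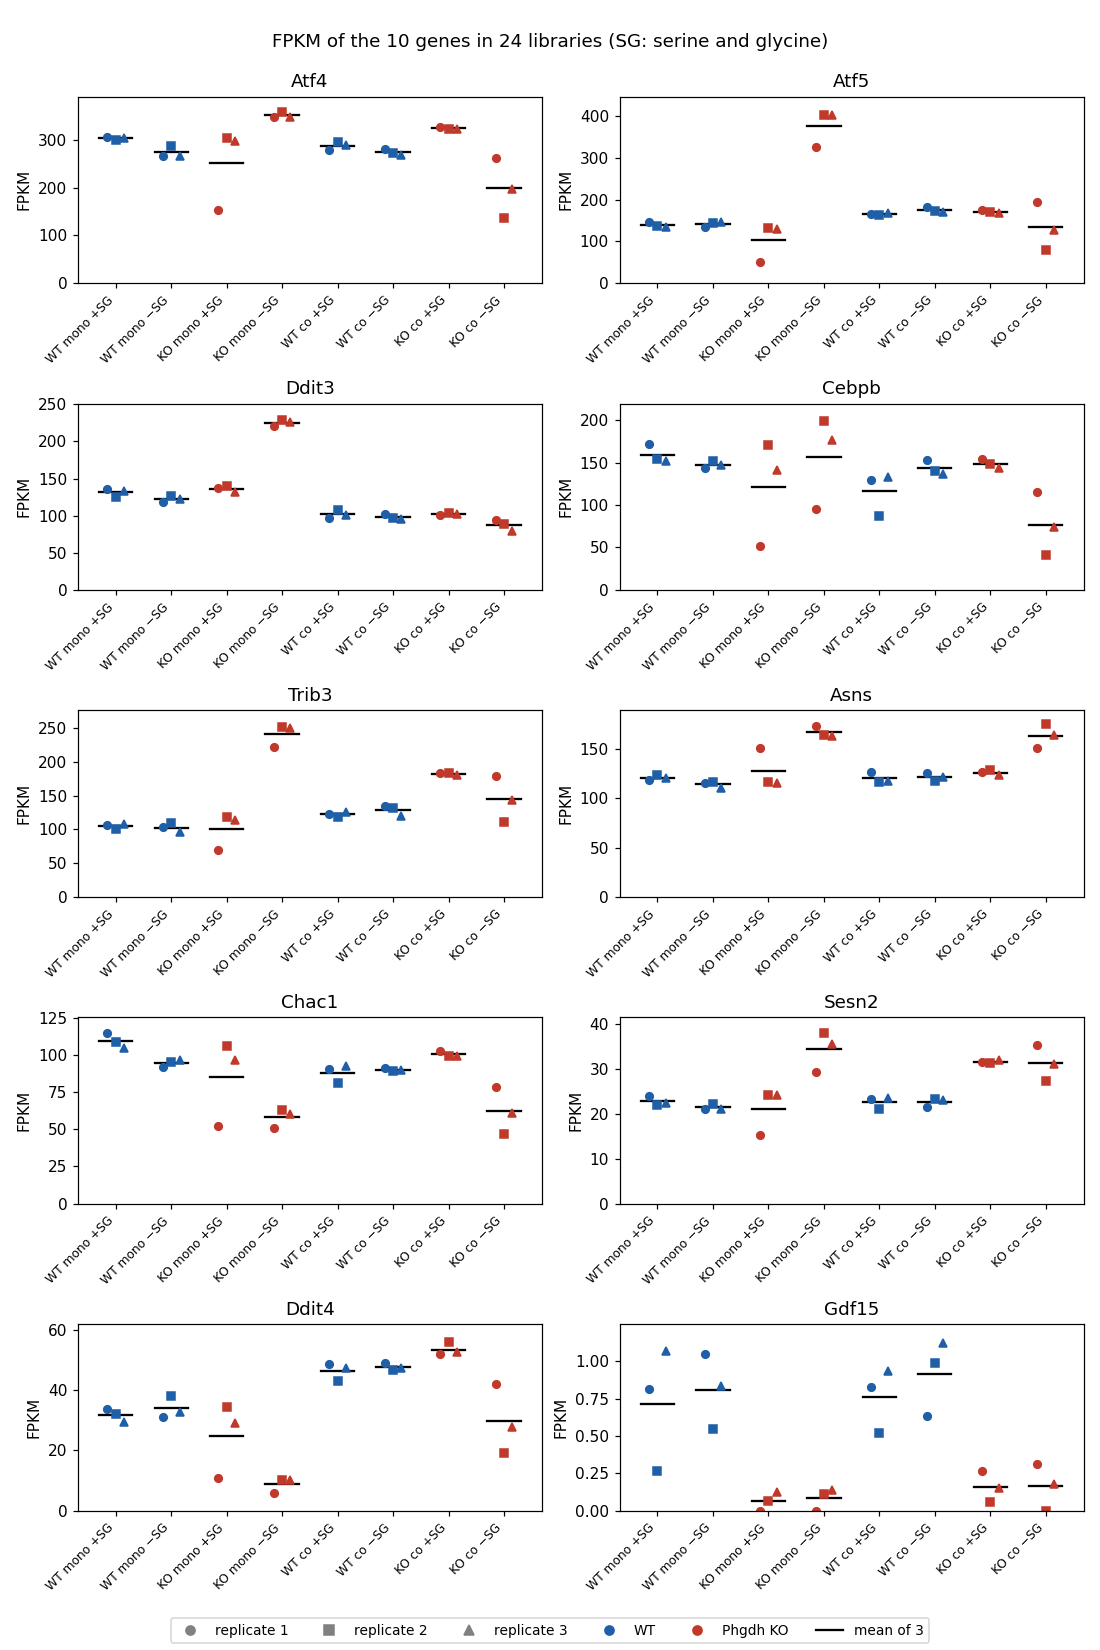
FPKM of each gene in all 24 libraries by group, with a marker for each replicate number, blue for WT, red for KO and a line at the mean of 3. SG, serine and glycine; mono, monoculture; co, coculture; the axes start at 0 and differ between genes. Atf4, Atf5, Ddit3 and Trib3 stand highest in KO monoculture without serine and glycine, where Ddit4 stands lowest.

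The 10 genes did not share 1 pattern over the 8 group means of log2(FPKM + 1). Pearson's r, given as a description over 8 points that share libraries, was 0.92 for Trib3 and Sesn2, 0.88 for Atf4 and Cebpb and 0.84 for Atf5 and Trib3. It was -0.92 for Asns and Chac1 and -0.87 for Ddit3 and Ddit4. Atf4 and Asns gave -0.17. The KO means behind these values include the libraries that stood apart.

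Among 7500 other protein-coding genes with a mean of at least 5 FPKM in at least 1 group, those most like Trib3 were Foxf2 (r = 0.986), Nfu1 (0.985) and Rangap1 (0.984), each highest in KO monoculture without serine and glycine. Those most like Asns were Ppp4r3b (0.979), Mtpn (0.977) and the mitochondrially encoded mt-Cytb (0.977), with the same highest group. Lrfn4 (0.980), Gm11361 (0.976) and Gadd45gip1 (0.972) were most like Chac1 and were lowest in that group.

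Other genes of the pathway were read from lists. On withdrawal in KO monoculture, 9 of 12 aminoacyl-tRNA synthetases, which charge tRNAs, rose and 1 fell, with a median log2 change of 0.51; the list also holds the tRNA export factor Xpot (-0.36), which is not counted here. They were led by Lars (1.27), Aars (1.27), Yars (1.19) and Nars (1.11). Amino acid transporters went down more often than up, 5 of 9 against 2 (median -0.36), led by the cystine transporter subunits Slc7a11 (-2.43) and Slc3a2 (-1.96). Of 11 synthesis enzymes, 4 rose and 6 fell, with the mitochondrial enzymes Pck2 (-1.82), Shmt2 (-1.62) and Pycr1 (-1.58) among the falls. The 11 include Phgdh, the edited gene, with group means of 483 FPKM in SG medium and 695 FPKM in SG-free medium. The background of 34.5% lower and 36.2% higher over all genes stands beside each of these counts.

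Upstream genes and the other arm of the stress response were read in the same comparison. Of 9 genes for eIF2α kinases and their partners, 6 rose and 3 fell, among them the phosphatase subunit Ppp1r15a (1.26), eIF2α itself, Eif2s1 (1.22), and the ER stress kinase PERK, Eif2ak3 (-1.32). Of 9 other bZIP and stress factors, 5 rose, Cebpd (1.02) and Cebpg (0.68) among them, and 3 fell, led by Jdp2 (-1.65). All 14 chaperones and quality control genes of the endoplasmic reticulum fell (median -0.71), led by Sdf2l1 (-2.02) and Edem1 (-1.76).

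With hepatocytes added to KO cells in SG-free medium, 13 of the 14 endoplasmic reticulum genes were higher and 0 lower (median 0.54). Transporters split 5 higher and 3 lower, led by Slc7a11 (2.85), and of the tRNA synthetases 9 of 12 were lower and 2 higher, led by Yars (-1.33). The background was 35.0% higher and 36.3% lower.

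In WT monoculture, withdrawal changed 1 of the 11 synthesis enzymes, Cth (-0.22), and 1 of the 9 transporters, Slc7a1 (0.19), by limma, beside 1.37% higher and 0.257% lower over all genes.

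Hypoxia genes were read beside Ddit4. In coculture they rose in 11 of 12 and 11 of 12 cases in WT cells (medians 1.90 and 1.81) and in 10 and 11 of 12 in KO cells (medians 1.78 and 3.08). None fell. Over all genes 16.3%, 14.9%, 20.1% and 35.0% were higher in these comparisons. The Ddit4 effect of coculture in SG medium did not pass a test of its difference between KO and WT cells, 0.68 ± 0.42 (SE; adjusted p = 0.329). On withdrawal in KO monoculture, where Ddit4 fell, 9 of 12 fell and 1 rose (median -0.95), led by Bnip3 (-3.28) and Pdk1 (-2.68); in KO coculture 6 fell and 0 rose, beside 34.5% and 14.4% lower over all genes. The part of these genes' change in the Ddit4 result was not tested.

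**Figure D5:**
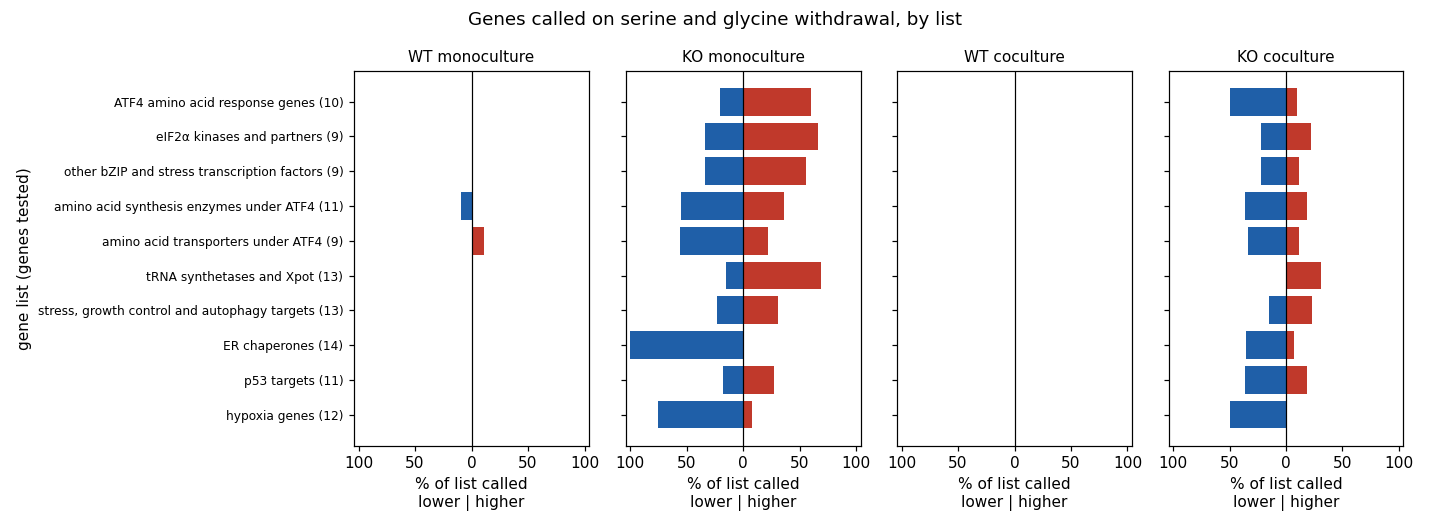
Share of the tested genes of each list that passed an adjusted p of 0.05 on withdrawal of serine and glycine, lower to the left (blue) and higher to the right (red), in the 4 combinations of genotype and culture. The number tested is in parentheses. In KO monoculture the endoplasmic reticulum chaperones lie wholly to the left and most genes of the tRNA synthetase list, which includes Xpot, to the right, and the WT panels are nearly empty.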

How the data were processed

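RNA sequencing of 24 cultures of mouse HY19636 cells (8 groups, 3 libraries each) was analysed from 1 table of FPKM that the authors deposited, with gene identifiers, GRCm38 positions and gene lengths. The submitters' processing notes name HISAT2 and the builds GRCm38 and mm10. The read counter, annotation release and use of strand were not given in the sources used here. FPKM multiplied by gene length and rescaled in each library gave whole reads (100% of values within 0.01 read), which set the depths, and 0 columns belonged to other samples.

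Genes at 1 FPKM or more in at least 3 libraries (12061) were tested as log2(FPKM + 1) with limma 3.58.1 in R 4.3.3: 1 model of 8 group means, 16 residual degrees of freedom, a mean-variance trend, no replicate block, two-sided, Benjamini-Hochberg adjustment over all tested genes, called under 0.05. The model gave 13 differences between 2 groups and 4 interactions. The script was tested on simulated data. The 10 genes, the 14 other lists and the tests were chosen with earlier results of these data known. From the other lists, up to 4 called genes with the largest change are named per comparison. For Asns, Trib3 and Chac1 the 3 genes with the highest correlation over group means are named. Alternatives were a pseudocount of 0.1, no filter, quantile normalization, limma voom on recovered reads, a replicate block, only the compared groups, and leaving out libraries. Promoter windows came from RefSeq. Lists of macrophage, endothelial and fibroblast markers summed to at most 9.73, 1.51 and 0.0855 FPKM per library.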

Additional observations from a re-analysis of the deposited data

Results flagged for a closer look

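The effect of 1 factor differed between groups by a direct test, the limma interaction, for the following values, each a difference of log2 changes on the log2(FPKM + 1) scale. Between KO and WT monocultures the response to withdrawal differed by 0.69 for Atf4, 1.95 for Atf5, 0.82 for Ddit3, 1.32 for Trib3, 0.48 for Asns, 0.78 for Sesn2 and -1.40 for Ddit4. Between KO and WT cocultures it differed by 0.35 for Asns. Between KO cocultures and KO monocultures it differed by -1.30 for Atf4, -2.42 for Atf5, -0.94 for Ddit3, -1.54 for Cebpb, -1.65 for Trib3 and -0.71 for Sesn2. The effect of coculture in SG medium differed between KO and WT cells by 0.59 for Sesn2. The Asns difference between cocultures, the Cebpb difference between KO cocultures and monocultures, the Sesn2 difference in SG medium and the Atf4 difference between monocultures each lost the call without a single library, as described above.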

How the results depend on the processing

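Of 66 called values of the 10 genes, Gdf15 included, 43 kept direction and call in every alternative run and 23 lost the call in at least 1. The Gdf15 calls between genotypes, which the filter favoured, are among the 43. Of 2620 alternative values, 112 changed sign while called in neither fit. A further value changed sign with a call: Asns in coculture against monoculture of KO cells in SG medium, 0.12 with the first replicate of KO monoculture in SG medium and the second of KO coculture in SG-free medium left out together, an alternative chosen after seeing the data.

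The number of the 10 genes called moved by over 1.5 times as follows. The cause was not tested. Counts for genotype include Gdf15, for which a genotype difference was favoured by the filter. Over the other 9 genes, genotype in monoculture with SG medium gave 0 higher and 0 lower as reported and 1 call with limma voom. With only the compared groups fitted, withdrawal in KO coculture gave 2, coculture gave 5 and 4 in WT cells (SG and SG-free medium) and 2 in KO cells in SG medium, genotype in coculture gave 6 and 4 (SG and SG-free), cocultured KO cells without serine and glycine against KO monocultures with them gave 1, the genotype by withdrawal interaction in coculture gave 4, and the genotype by coculture interaction gave 0. With the pair of libraries above left out, coculture in WT cells gave 4 and 4, the cocultured KO cells against KO monocultures 7, and these interactions 4 and 2. Without the first replicates of both KO monocultures, coculture in WT cells gave 3 and 3 and the genotype by withdrawal interaction in coculture 6. Limma voom gave 2 for genotype in monoculture with SG medium and 2 and 2 for these interactions, quantile normalization gave 0 for the genotype by withdrawal interaction in coculture, and no filter gave 5 for genotype in SG-free coculture and 0 and 0 for the interactions.

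Leaving out each library in turn gave 2 to 8 for withdrawal in KO coculture, 1 to 4 for genotype in monoculture with SG medium, 4 to 9 for genotype in SG-free coculture, 0 to 7 for genotype by withdrawal in coculture and 0 to 3 for genotype by coculture in SG medium. The 2 genotype ranges again include Gdf15, which the filter favoured.

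On average, replicate numbers did not pair the libraries. Deviations from group means correlated at -0.015 on average over 84 same-number pairs of libraries (9 above 0.1) and at 0.008 over 168 others (19 above 0.1). Single pairs ran from -0.628 to 0.401 and from -0.463 to 0.607, and pairing within some of the groups only was not tested. With a replicate block, 3 of 170 values lost the call and 0 gained it, and the genotype by coculture count became 0.

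Depth limits Gdf15, with at most 37 reads in a library.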

Other observations

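The p53 response also reaches Sesn2 and Gdf15. On withdrawal in KO monoculture 3 of 11 rose and 2 fell (median -0.013), with Cdkn1a (1.12), a cell cycle inhibitor, at the top and Ccng1 (-1.03) at the bottom, as log2 changes by limma; over all genes 36.2% rose and 34.5% fell. With hepatocytes, Cdkn1a changed by 2.39 and 2.28 in WT cells (SG and SG-free medium) and by 2.08 and 0.52 in KO cells, while Aen, an apoptosis nuclease, changed by -0.49, -0.57, -0.85 and -1.38, all of which passed the test. Over all genes 31.2%, 28.1%, 40.0% and 71.3% passed in these comparisons. Cdkn1a and Aen are single genes of the 11 and do not describe the rest of the list.

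Targets of ATF4 in growth control and autophagy were split on withdrawal in KO monoculture, with 4 of 13 higher and 3 lower, led by Ero1l (-0.87) and Atg12 (0.78), against the same shares over all genes. In coculture 7, 7, 6 and 8 of 13 were higher and 3, 3, 3 and 2 lower (WT in SG and SG-free medium, then KO in both), led in each by Ero1l, an oxidase of the endoplasmic reticulum, at 2.40, 2.28, 2.14 and 3.02. Over all genes 16.3%, 14.9%, 20.1% and 35.0% were higher and 14.9%, 13.1%, 19.9% and 36.3% lower. Ero1l, Ndrg1 and Vegfa of this list are hypoxia genes as well.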
